A study of Sus scrofa with 16 samples.

Results

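The transforming growth factor beta (TGF-beta), activin and anti-Mullerian hormone genes were read on porcine arrays of colonic mucosa and liver from pigs fed corn starch (CS) or raw potato starch (RPS). The set named 10 genes: the ligands TGFB1, TGFB2, TGFB3, INHBA, INHBB and AMH, the receptors TGFBR1 and TGFBR2, the activin-binding protein gene FST and the intracellular inhibitor SMAD7. A probe was taken when its gene name, or the bracketed symbol in its description, was one of these. The search found 17 of the 43603 non-control probes, for 9 of the 10 genes. TGFBR2 had no probe under this rule and was not analysed here. The set was chosen by measured values, those of RPS against CS in the colon, since TGFB3, FST and AMH were on the study's list of colonic genes that differed between the diets. The colonic diet difference is therefore given below as a description, without a test.

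TGF-beta ligands are made as latent dimers, are released in the matrix or at the cell surface, and signal through pairs of type I and type II receptor kinases to SMAD proteins that act in the nucleus. Activins, dimers of the inhibin beta subunits encoded by INHBA and INHBB, use related receptors and the same SMAD branch, and follistatin (FST) binds activins and keeps them from their receptors. In the gut the pathway is known for restraining immune cells and for stromal matrix production, and in the liver for fibrosis and for limiting hepatocyte growth. Anti-Mullerian hormone (AMH) is a gonadal member of the same superfamily.

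All animals were Duroc × Landrace × Large White barrows, 170 days old at slaughter. The CS pigs received a corn and soybean diet with purified corn starch, and the RPS pigs received the same diet with that starch exchanged for purified raw potato starch, at 230 g/kg in the growing and 280 g/kg in the finishing period of a 100-day trial. Scraped colonic mucosa and liver were each hybridised from 4 pigs per diet, on 16 one-colour arrays without pooling. Values are log2 signals of quantile-normalized arrays, with the 8 arrays of a tissue normalized together for the diets and all 16 together for the tissues.

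Each probe is a 60-base oligonucleotide and is named here by its gene and by the base at which the array's design annotation places its start in the transcript record. Genes with several probes allowed a check of 1 transcript at more than 1 place, and 6 of the 9 genes had at least 2 probes. The sequences of 6 probes on which the results turn are given from the array files, 5′ to 3′ in lower case. The FST and AMH pairs are shown because the probes of each gene differed in what they read, and 1 TGFB1 and 1 SMAD7 probe as examples of those called higher in colon.
FST base 229: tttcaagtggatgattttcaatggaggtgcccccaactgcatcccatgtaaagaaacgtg
FST base 737: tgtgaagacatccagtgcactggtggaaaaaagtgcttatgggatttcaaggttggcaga
AMH base 249: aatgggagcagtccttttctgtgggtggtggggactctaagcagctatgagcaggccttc
AMH base 1549: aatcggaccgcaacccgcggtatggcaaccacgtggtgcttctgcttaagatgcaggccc
TGFB1 base 1571: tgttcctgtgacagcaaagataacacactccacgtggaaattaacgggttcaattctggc
SMAD7 base 856: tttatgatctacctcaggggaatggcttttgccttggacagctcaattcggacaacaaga

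The poly(A) signal letters AATAAA, searched on the printed strand only, were present in 4 of the 17 member probes, those at TGFB2 base 696, TGFB3 base 2508, INHBA base 3499 and AMH base 1763. Of all probes, 9.60% held these letters. The longest run that a member probe shared with another probe of the array was 17 bases, at INHBA base 3499. The INHBB probe shared 16 bases with a ZBTB7A probe.

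The share of probes with signal well above background was 68.8% to 72.2% on the colonic CS arrays, 64.9% to 68.1% on the colonic RPS arrays and 61.1% to 65.9% on the liver arrays, and no spot was saturated. Before normalization the median signal was 56.3 to 70.8 on the colonic CS arrays and 34.2 to 42.5 on the colonic RPS arrays, without overlap, and its part in the colonic differences of dim probes was not tested. The number of arrays limits the precision. Each diet and tissue group lay on 1 slide of its own, so within a tissue a slide effect cannot be told apart from a diet effect. No slide held both tissues, so slide effects cannot be told apart from tissue effects either. The p-values of the tissue fit take the arrays of a slide as independent. The labelled tissues matched their markers. Higher in colon were 9 of 10 epithelial genes, by a measured median of 5.51 on the log2 scale. Lower were 9 of 9 hepatocyte genes, with a measured median difference of -14.20. That median is the value of APOB, above background on 2 of 8 colonic arrays, so it is no exact fold. Colonic CS replicate 3 and colonic RPS replicate 2 stood apart. Their mean B and plasma cell marker levels were 11.36 and 11.02 against 5.23 to 9.11 on the other 6 colonic arrays, and their mean epithelial marker levels were 11.98 and 12.69 against 13.66 to 14.17. In these bulk samples fewer cells of a type and less RNA per cell cannot be told apart. Differences of member probes that move by over 1.5 times without these 2 arrays are given below with and without them.

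In the colon, TGFB3, a TGF-beta ligand, was lower with RPS at the probe the study listed. The base-2045 probe read 5.30, 5.65, 5.28 and 6.66 in the CS pigs and 5.11, 4.70, 4.47 and 4.52 in the RPS pigs. Every RPS array lay below every CS array, although the closest pair was 5.28 and 5.11. The means were 5.72 ± 0.65 and 4.70 ± 0.29 (SD, n = 4 each), a difference of -1.02 on the log2 scale, or 2.03-fold. With normexp background correction, run here with an offset of 50 added to every intensity, the difference was -0.40. Such an offset by itself shrinks log2 differences of dim probes, in all normexp values given here. At base 2508 of the same transcript the CS pigs read 7.58, 7.57, 7.40 and 7.79 and the RPS pigs 7.47, 7.48, 6.97 and 7.28. These groups overlapped, with a difference of -0.28. The remaining TGFB3 probe, at base 901, was above background on none of the 16 arrays.

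FST was lower with RPS at one of its probes only. At base 737, the listed probe, the CS pigs read 5.56, 5.42, 5.88 and 5.98 and the RPS pigs 4.75, 5.28, 4.47 and 3.92. The groups did not overlap, and the means were 5.71 ± 0.26 and 4.60 ± 0.57 (SD, n = 4 each), a difference of -1.11 or 2.16-fold. With normexp it was -0.39. The base-229 probe gave 5.63, 5.98, 6.49 and 6.52 in the CS pigs and 5.90, 6.52, 6.25 and 5.91 in the RPS pigs. There the diets coincided, with a difference of -0.01.

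AMH was higher with RPS at the listed base-249 probe. The CS pigs read 4.94, 5.09, 4.45 and 4.29 and the RPS pigs 6.04, 5.00, 5.80 and 5.88. RPS replicate 2 fell within the CS range and the other 3 RPS pigs lay above it. The means were 4.69 ± 0.38 and 5.68 ± 0.47 (SD, n = 4 each), 1.98-fold apart, a log2 difference of 0.99 that became 0.35 with normexp. The other AMH probes, at base 1549 and base 1763, differed by 0.40 and 0.30 in the same direction, and the diets overlapped at both. With normexp these were 0.11 and 0.30. The base-1549 difference was smaller without RPS replicate 2, its highest RPS array at 5.07, and was 0.31 without CS replicate 3 and RPS replicate 2 together.

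**Figure D1:**
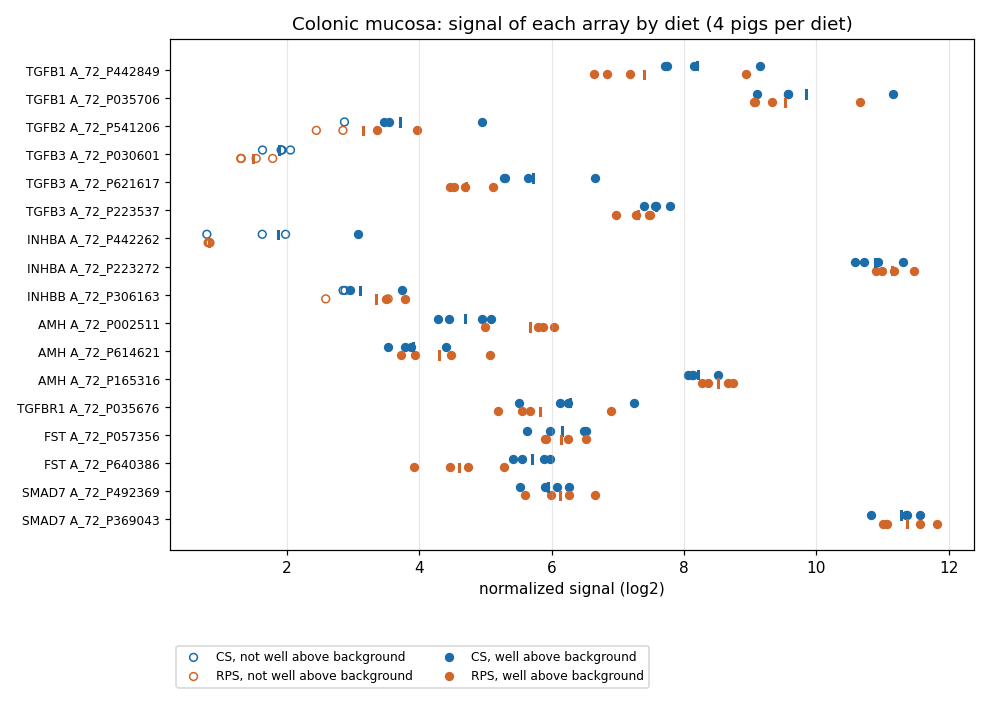
Normalized log2 signal of each colonic array (horizontal axis) for the 17 probes, with CS pigs in blue and RPS pigs in orange, vertical ticks at the group means and open points where a spot was not well above background. Only the listed TGFB3 (A_72_P621617) and FST (A_72_P640386) probes have groups that do not overlap, and in both the RPS pigs lie lower.

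Of the 17 probes, 10 were lower and 7 higher with RPS in the colon, and their median difference was -0.28 against 0.01 over all probes. A fold above 1.5 with groups that did not overlap was met by 2 member probes, those of TGFB3 and FST just given, and by 1.65% of all probes. Both were lower with RPS, where 1.43% of all probes lay lower without overlap, and no member was higher without overlap, as 5.08% of all probes were. Since this contrast chose the set, nothing is read from the comparison of these shares. A measured difference above 1.5-fold regardless of overlap was met by 5 member probes and 12.7% of all probes. The further ones were AMH base 249, TGFB1 base 1571 and INHBA base 979. With normexp TGFB1 base 1571 differed by -0.49, under 1.5-fold. INHBA base 979 was above background on 1 of 8 colonic arrays, so its measured difference is no fold, and 4 member probes remain without it. TGFB2, at -0.55, lay under that limit, with a probe above background on 5 of 8 colonic arrays, and its difference ranged from -0.83 to -0.14 when 1 array was left out, the smallest without CS replicate 3.

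TGFB1, the most widely expressed TGF-beta ligand, varied widely among pigs of a diet. At base 1571 the CS pigs read 7.72, 8.15, 9.14 and 7.75 and the RPS pigs 7.19, 8.94, 6.84 and 6.64. At base 2948 the CS pigs read 9.10, 9.57, 11.15 and 9.57 and the RPS pigs 9.05, 10.66, 9.33 and 9.07. CS replicate 3 and RPS replicate 2 were the highest of their group at both probes, and the differences of the means were -0.79 and -0.32. The base-2948 difference turned to 0.11 without CS replicate 3 alone and was -0.70 without RPS replicate 2 alone. Without both it was -0.27, so its size and direction depend on which of these 2 arrays is kept. TGFBR1, the type I receptor kinase for these ligands, had the same high arrays. Its CS pigs read 5.50, 6.24, 7.25 and 6.12 and its RPS pigs 5.67, 6.90, 5.19 and 5.55, a difference of -0.45 with overlapping groups. It was -0.13 without CS replicate 3, -0.81 without RPS replicate 2 and -0.48 without both.

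These are the arrays with the high B and plasma cell marker levels, and the part of those cells in the values was not tested. With both arrays left out, leaving 3 pigs per diet, TGFB1 base 1571 differed by -0.98, AMH base 249 by 1.13, FST base 737 by -1.27 and TGFB3 base 2045 by -1.16, each without overlap. These 4 probes then met both limits, and the measured values of INHBA base 979, mostly at background, made the count 5, as against 2784 of the 43603 probes. Without RPS replicate 2 alone the count of member probes was 4, among them TGFB1 base 1571 at -1.30, and 2599 of the 43603 probes met the limits. Among smaller colonic differences, TGFB2 became -0.21 without both arrays, INHBA base 3499 became 0.38, INHBB went from 0.25 to 0.40, SMAD7 base 2687 became 0.05 and FST base 229 became -0.03.

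The colonic diet differences of INHBA at base 3499 and of SMAD7 were smaller than the SD among pigs of a diet, and the other activin subunit probes were above background on at most 4 of 8 colonic arrays. INHBA, which encodes the subunit of activin A, was 0.25 higher with RPS at base 3499, with overlapping groups between 10.59 and 11.48. Its base-979 probe was above background on 1 of the 8 colonic arrays, CS replicate 1, so no fold is given. INHBB, the subunit of activin B, was above background on 4 of 8 colonic arrays. SMAD7, the SMAD that blocks the type I receptor and is itself a target of the pathway, was higher with RPS by 0.18 at base 856 and by 0.09 at base 2687. The latter turned to -0.07 without CS replicate 3 or without RPS replicate 1.

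**Figure D2:**
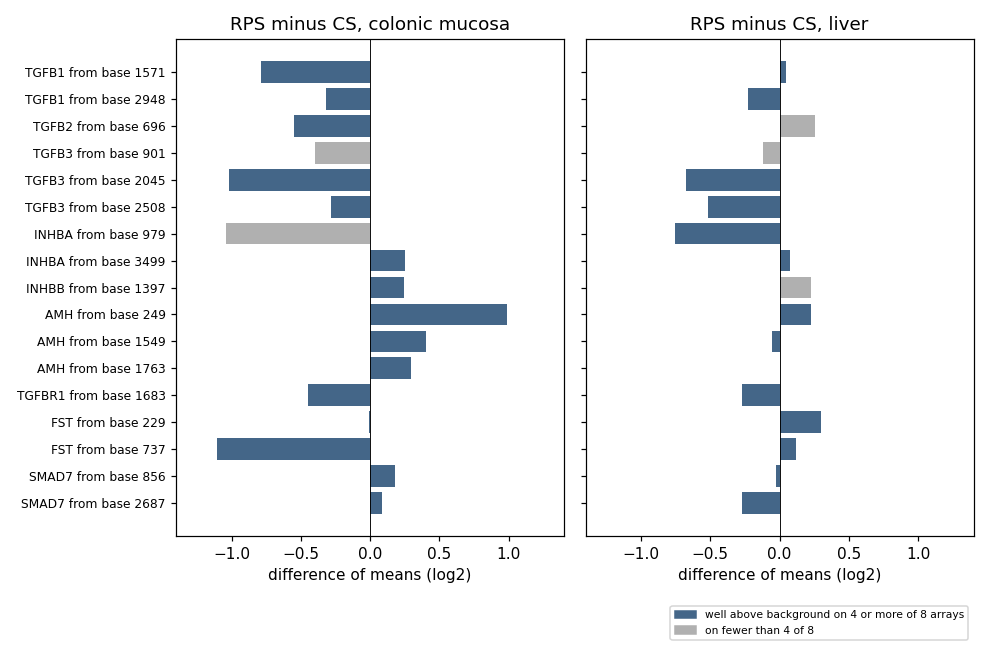
Difference of the group means, RPS minus CS (log2, horizontal axis), for each of the 17 probes in colonic mucosa (left) and liver (right), 4 pigs per diet. Grey bars mark probes above background on fewer than 4 of the 8 arrays of that tissue. Probes of 1 gene differ in length of bar in the colon, as FST at base 229 (-0.01) and base 737 (-1.11) show.

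Markers of other cells of the mucosa moved with diet in the same arrays. The smooth muscle list was lower with RPS for 5 of 5 genes, and its mean level per array lay between 11.98 and 12.15 in the CS pigs and between 11.47 and 11.74 in the RPS pigs. The macrophage list was lower for 5 of 6 genes, with mean levels of 11.37 to 11.69 against 10.64 to 11.36. Neither range overlapped. Fibroblast markers were lower for 5 of 6 genes and T cell markers for 7 of 7, with ranges that overlapped, while 9 of 10 epithelial markers were higher with RPS. The B and plasma cell markers were lower for 3 of 3 genes, with a median difference of -1.60, and the neutrophil markers higher for 3 of 3, with a median of 0.81. Their mean levels overlapped, at 6.56 to 11.36 in CS against 5.23 to 11.02 in RPS pigs for the former and 2.07 to 5.84 against 4.66 to 5.41 for the latter. Every measured marker in the smooth muscle and macrophage lists was above background on all colonic arrays. Without CS replicate 3 and RPS replicate 2 more lists were apart. Fibroblast levels were then 8.47 to 9.03 in CS and 7.77 to 8.26 in RPS pigs, a mean difference of -0.67 in place of -0.43. Neutrophil levels were then 2.05 to 4.26 against 4.60 to 5.36, a difference of 1.58 in place of 0.94. In that list S100A8 and S100A9 were above background on 7 and 5 of 8 colonic arrays. Hepatocyte marker levels were then 4.38 to 4.65 against 4.71 to 4.86, a difference of 0.30 in place of 0.22. Of the 9 hepatocyte genes 5 were then higher and 4 lower, with SERPINA1 at 2.10 and ALB at 0.62. TTR, FGA and CYP2E1 were above background on 0 of 8 colonic arrays and APOB on 2, so this mean is no measure of a cell type. The smooth muscle and macrophage lists stayed apart, at -0.49 and -0.64, the T cell and B and plasma cell lists still overlapped, and the epithelial difference went from 0.19 to 0.01, with 6 of 10 genes higher. The mean levels of the fibroblast, smooth muscle, macrophage, neutrophil and hepatocyte lists thus separated by diet on the 6 arrays kept. TGFB3 base 2045, FST base 737, TGFB1 base 1571 and AMH base 249 did so on the same 6 arrays. The part of any of these cells in the TGFB3, FST, TGFB1 and AMH differences was not tested.

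In the liver, which had no part in choosing the set, no member probe differed between the diets after adjustment over all probes with limma, as against 0.00229% of all probes, which is 1 probe. An unadjusted limma p under 0.05 was reached by 2 of the 17 member probes and by 7.59% of all probes. A share of 2 in 17 is near that background, and neither of the 2 reached it with the replicate number as a block. TGFB1 base 2948 read 8.41, 8.56, 8.40 and 8.20 in the CS pigs and 8.13, 8.08, 8.23 and 8.22 in the RPS pigs. The difference was -0.23 ± 0.10 (SE, limma adjusted p = 0.658), and CS replicate 4 lay within the RPS range. TGFBR1 read 4.95, 4.84, 4.68 and 4.62 in the CS pigs and 4.37, 4.55, 4.41 and 4.67 in the RPS pigs. It differed by -0.27 ± 0.11 (SE, limma adjusted p = 0.626), with 3 of 4 RPS pigs below all CS pigs. The other TGFB1 probe, at base 1571, differed by 0.04. Neither passed the fold limit of 1.5, and 0 members met the study's thresholds of an unadjusted p under 0.05 with that fold, met by 3.56% of all probes.

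A fold above 1.5 in the liver was seen for 2 member probes and 11.3% of all probes. INHBA base 979 read 7.05, 6.41, 8.20 and 6.74 in the CS pigs and 6.02, 6.35, 6.64 and 6.36 in the RPS pigs, a difference of -0.76 ± 0.37 (SE, limma adjusted p = 0.713). TGFB3 base 2045 read 7.39, 6.04, 6.46 and 5.44 in the CS pigs and 5.86, 5.21, 5.14 and 6.39 in the RPS pigs, a difference of -0.68 ± 0.46 (SE, limma adjusted p = 0.799). The groups overlapped at both probes. With normexp the 2 differences were -0.45 and -0.34, both under 1.5-fold. Each also fell under 1.5-fold without its highest CS liver, CS replicate 3 for INHBA and CS replicate 1 for TGFB3. No member probe separated the liver diets, while 4.45% of all probes did. The median difference of the 17 probes was -0.02 and that of all probes was 0.00.

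FST and TGFB3 varied widely among livers on the same diet. At FST base 737 the CS livers read 6.81, 7.92, 6.60 and 9.09 and the RPS livers 6.66, 8.76, 9.21 and 6.27. The high readings came from CS replicate 4 and RPS replicates 2 and 3, and the base-229 probe was highest in the same 3 livers, at 8.42, 8.30 and 8.71. Those livers had the lowest TGFB3 of their diet at base 2508, at 8.19, 7.62 and 7.64 against 8.35 to 9.05 in the other 5. The FST diet differences in the liver were 0.30 ± 0.54 and 0.12 ± 0.84 (SE) at the 2 probes, smaller than this spread.

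Between the tissues more member probes passed the limma test than between the liver diets, with 8 arrays per group in place of 4. Of the 17 probes, 13 passed an adjusted limma p under 0.05 in the mean of both diets, against 52.9% of all probes. Higher in colon were 6 member probes, of TGFB1, TGFBR1, SMAD7 and INHBA, against 28.9% of all probes. Lower in colon were 7, of FST, TGFB3, INHBA and AMH, against 24% of all probes, and 1 of these, TGFB3 base 901, was at background on all arrays. The median difference of the members was 0.09 and that of all probes was 0.01.

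FST was higher in liver at both of its probes. At base 737 the 8 colonic arrays lay between 3.63 and 5.72 (median 5.08) and the 8 liver arrays between 6.51 and 9.39 (median 7.59). The tissues did not overlap, and colon minus liver was -2.99 ± 0.46 (SE, limma adjusted p = 6.40e-05), or 7.97-fold. At base 229 the ranges were 5.37 to 6.27 and 6.91 to 8.90, again apart, with a difference of -1.89 ± 0.31 (SE, limma adjusted p = 1.11e-04). Both probes kept the call within each diet alone. The base-737 difference was -2.38 among CS and -3.61 among RPS pigs, whose colons read lower.

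TGFB3 was also higher in liver. At base 2508 the colonic arrays lay between 6.73 and 7.57 (median 7.25) and the liver arrays between 7.83 and 9.23 (median 8.58). The difference was -1.31 ± 0.17 (SE, limma adjusted p = 1.24e-05) without overlap. At base 2045 it was -1.30 ± 0.29 (SE, limma adjusted p = 0.00169), with tissues that overlapped. Among the CS pigs alone the base-2045 difference was -1.11 and was not called (limma adjusted p = 0.0984).

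The INHBA probes went opposite ways. At base 979 the liver arrays lay between 6.27 and 8.40, all above background, and the colonic arrays between 0.82 and 2.79, with 1 of 8 above background. The colonic level is therefore not measured on most arrays, and the test rests on the values as read (limma adjusted p = 3.65e-10). Colonic values were also raised to at least the lowest signal called above background on their array. The liver signal was then 18.7-fold higher. Spots not called can lie above that lowest signal, so this fold is no strict bound. It holds for the subtracted signals: with normexp background correction and its offset the log2 difference of INHBA base 979 was -1.53. At base 3499 the colonic arrays lay between 10.43 and 11.35 and the liver arrays between 9.66 and 10.39. This difference was 0.87 ± 0.14 in the other direction (SE, limma adjusted p = 1.19e-04), and the tissues did not overlap. The array annotation places both probes in the same INHBA record, and whether the base-3499 probe reads INHBA transcript was not tested. INHBB did not pass the test, with a difference of 0.73 ± 0.64 (SE, limma adjusted p = 0.363) and a probe above background in 1 of 8 livers.

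**Figure D3:**
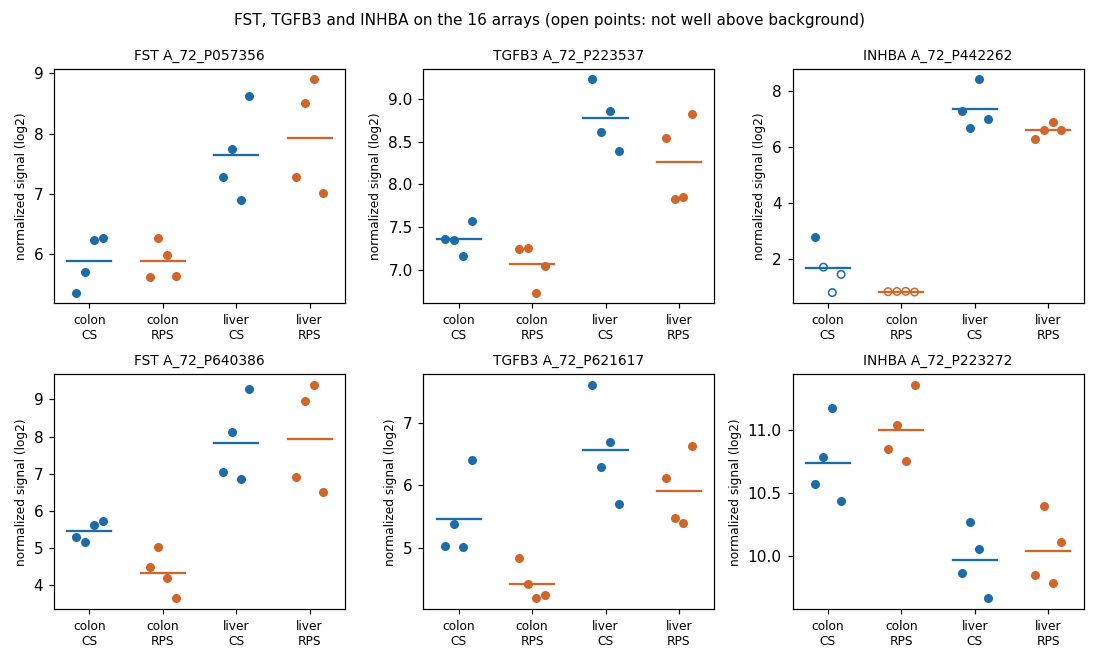
Normalized log2 signal (vertical axis) of both FST probes, the 2 brighter TGFB3 probes and both INHBA probes on the 16 arrays, by tissue and diet, with horizontal lines at the group means of 4 pigs and open points where a spot was not well above background. FST and TGFB3 are higher in liver, 3 livers stand high in FST, and the INHBA probes at base 979 (top) and base 3499 (bottom) point in opposite directions.

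SMAD7, TGFB1 and TGFBR1 were higher in colon. SMAD7 base 856 lay between 5.26 and 6.41 in colon and between 3.80 and 4.96 in liver, a difference of 1.38 ± 0.20 (SE, limma adjusted p = 3.30e-05). At base 2687 the ranges were 10.67 to 11.72 and 9.90 to 10.55, a difference of 1.01 ± 0.15 (SE, limma adjusted p = 6.76e-05). Neither SMAD7 probe overlapped between tissues, and both kept the call within each diet.

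TGFB1 base 2948 lay between 8.86 and 11.01 (median 9.26) in colon and between 8.29 and 8.76 (median 8.42) in liver. The tissues were apart, by 1.03 ± 0.29 (SE, limma adjusted p = 0.00769). The base-1571 probe differed by 0.93 ± 0.34 (SE, limma adjusted p = 0.0318) with overlapping tissues, and TGFBR1 by 0.89 ± 0.26 (SE, limma adjusted p = 0.00881). With the replicate number as a block the base-1571 probe lost its call (limma adjusted p = 0.0648). Without colonic CS replicate 3 and RPS replicate 2, TGFB1 base 2948 differed by 0.62 (limma adjusted p = 1.65e-04) and TGFBR1 by 0.55 (limma adjusted p = 0.00329). TGFB1 base 1571 then differed by 0.50 and lost its call (limma adjusted p = 0.0510). Within single diets TGFB1 base 2948 and TGFBR1 were not called, with limma adjusted p-values of 0.0537 to 0.120. TGFB1 base 1571 differed by 1.35 among CS pigs (limma adjusted p = 0.0286) and by 0.50 among RPS pigs, where it was not called (limma adjusted p = 0.496). T cell markers were higher in colon for 7 of 7 genes and B and plasma cell markers for 3 of 3, and their part in these signals was not tested.

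The probes of AMH disagreed between tissues. Base 249 was lower in colon by 0.80 as an absolute log2 difference (SE 0.18, limma adjusted p = 0.0015), with a difference of -1.18 among CS pigs and -0.41 among RPS pigs, where it was not called (limma adjusted p = 0.281). Base 1549 and base 1763 differed by 0.09 and -0.03, with limma adjusted p-values of 0.735 and 0.842. TGFB2 did not pass the test either, at 0.76 ± 0.39 (SE, limma adjusted p = 0.123). It was above background on 5 of 8 colonic and on 0 of 8 liver arrays, and differed by 0.50 without colonic CS replicate 3 and RPS replicate 2. AMH base 1763 then differed by -0.11 and AMH base 1549 by -0.12, both still not called.

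**Figure D4:**
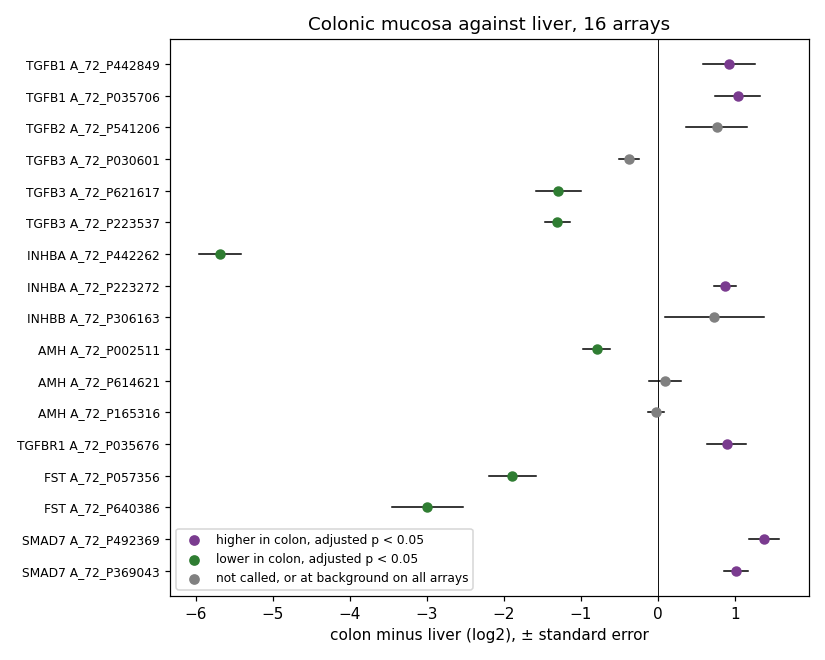
Colon minus liver (log2, horizontal axis) for the 17 probes on 16 arrays, with bars of 1 standard error. Purple points are higher in colon and green points lower in colon at a limma adjusted p under 0.05, and grey points were not called or were at background throughout. FST, TGFB3 and INHBA base 979 lie left of 0, and SMAD7, TGFB1, TGFBR1 and INHBA base 3499 lie right of it. INHBA base 979 is drawn at its value as read, although its colonic level was mostly at background.

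Once each array's value was taken as its deviation from its group mean, so that diet and tissue no longer entered, probes of the same gene varied together in 4 of 5 pairs, as Pearson's r over the 16 arrays, and in 3 of them also without colonic CS replicate 3 and RPS replicate 2. These are the pairs among the 12 member probes above background on all arrays. The r was 0.95 for FST, 0.90 for SMAD7, 0.86 for TGFB3 and 0.80 for TGFB1, and the remaining pair, of AMH base 249 and base 1763, gave -0.15. TGFBR1 and TGFB1 base 2948 gave 0.93, and TGFB3 base 2508 and FST base 737 gave -0.74. The last value comes from the liver, where r was -0.94 over 8 arrays, against 0.43 over the 8 colonic arrays. The TGFB1 pair gave 0.92 in colon and -0.16 in liver, and TGFBR1 with TGFB1 base 2948 gave 0.94 and 0.50. The AMH pair gave -0.51 in colon and 0.75 in liver, while FST, SMAD7 and TGFB3 pairs were between 0.66 and 0.99 in both. Without colonic CS replicate 3 and RPS replicate 2 the TGFB1 pair gave 0.0092 and TGFBR1 with TGFB1 base 2948 gave 0.48, so those values rest on these 2 arrays. On the 14 arrays kept, FST gave 0.95, SMAD7 0.86, TGFB3 0.87, AMH 0.28 and TGFB3 with FST base 737 -0.82. These arrays share slides within a group, the deviations of a group sum to zero, and the values are descriptions.

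Among named probes above background on all arrays, the genes most like TGFB1 base 2948 by that measure were RABGAP1L (0.98), PRPF3 (0.98) and BCL6 (0.98). TGFBR1 was most like POT1, NRROS and RPIA (each 0.97). NRROS encodes a protein that anchors latent TGF-beta on myeloid cells, and BCL6 encodes a transcriptional repressor made in germinal centre B cells. Without the same 2 arrays, which have high B and plasma cell marker levels, the values were 0.86, 0.77 and 0.91 for RABGAP1L, PRPF3 and BCL6, and 0.83, 0.83 and 0.79 for POT1, NRROS and RPIA. FST base 229 was most like SDS (0.83), which encodes serine dehydratase, COX1 (0.81) and OAT (0.81), which encodes ornithine aminotransferase. TGFB3 base 2508 was most like CACNG1 (0.96), AMH base 1763 like ANKRD12 (0.91) and SMAD7 base 2687 like FAM46A (0.94).

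Beyond the members, 50 of 79 listed genes of the superfamily had a probe, read at the brightest. Between tissues 16 were higher in colon, 15 were lower and 19 were not called with limma, where 28.9% of all probes were higher and 24% lower, and their median difference was 0.02. Without colonic CS replicate 3 and RPS replicate 2 the counts were 18 higher and 15 lower. Among 14 other ligands 7 were higher in colon and 3 lower, of which MSTN, higher, and BMP6, lower, were at background on all arrays. BMP7 and BMP4, bone morphogenetic proteins, were higher by 3.02 ± 0.47 and 2.73 ± 0.22 (SE, limma adjusted p = 8.17e-05 and 1.26e-07), and GDF9 and GDF5 were lower, at -1.30 and -0.59. Among 10 other receptors none was higher in colon and 4 were lower, among them ACVR1 at -2.15 ± 0.14 and the endothelial co-receptor ENG at -1.53 ± 0.09 (SE, limma adjusted p = 1.25e-08 and 5.76e-09). The others were BMPR2 at -0.94 and TGFBR3, whose measured difference of -1.76 rests on a probe above background on 0 of 8 colonic and 2 of 8 liver arrays. Endothelial markers were lower in colon for 4 of 5 genes, and their part in the ENG difference was not tested.

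The intracellular and extracellular regulators were mixed. Among 7 SMADs and their regulators 2 were higher in colon, SMAD2 at 0.64 and SMAD4 at 0.39, and 2 were lower, SMAD6, the inhibitor of the BMP branch, at -1.18 and ZFYVE9, which encodes a SMAD anchor, at -2.19. The ZFYVE9 probe was above background on 1 of 8 colonic and 5 of 8 liver arrays. Of 7 latency and activation genes 2 were higher and 2 lower. THBS1, which encodes the TGF-beta activator thrombospondin 1, was at 3.28 ± 0.31 (SE, limma adjusted p = 5.13e-07). The other higher gene, ITGB6, at 1.48, was above background on 4 of 8 colonic and 1 of 8 liver arrays. It lost its call without colonic CS replicate 3 and RPS replicate 2 (limma adjusted p = 0.123), where ITGB8 gained one. The convertase gene FURIN, at -1.32, and the integrin gene ITGAV, at -0.25, were lower. Of 4 extracellular inhibitors CHRD, which encodes the BMP antagonist chordin, was at -6.08 ± 0.36 (SE, limma adjusted p = 3.34e-09) and the proteoglycan gene DCN at 2.48. Of 8 transcriptional targets 4 were higher, among them PMEPA1 at 2.39, and 2 were lower, CTGF at -1.67 and ID2 at -1.28.

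By diet, in the colon none of the 50 met a fold of 1.5 without overlap, against 1.65% of all probes, and 0 of 50 is near that share. Their median difference was 0.04, and ACTA2, a smooth muscle actin and the only one whose groups did not overlap, was lower with RPS by 0.52 as an absolute log2 difference. ACTA2 also belongs to the smooth muscle list. The widest colonic differences by role, as absolute values, were BMP4 at -0.76 and BMP5 at -0.68 for ligands, ACVR1B at 0.51 and BMPR1B at 0.45 for receptors, BAMBI at -0.43 and SMAD6 at 0.48 for SMAD regulators, and FBN1 at -0.79 and THBS1 at 0.53 for latency and activation. Those of the extracellular inhibitors were GREM1 at -1.54 and DCN at -0.33, and those of the targets ID1 at 0.55 and ACTA2 at -0.52. All groups but those of ACTA2 overlapped, and GREM1 and BMPR1B were above background on 3 and 4 of 8 colonic arrays. TGFBR3 and ZFYVE9, above background on 0 and 1 of 8 colonic arrays, were left out of this order. Without colonic CS replicate 3 and RPS replicate 2, 3 of the 50 met both limits, BMP4 at -0.82, BMP5 at -0.73 and GREM1 at -1.90, where 2784 of the 43603 probes did. BMPR1B then differed by 0.01, ACVR1B by 0.33 and BAMBI by -0.73. In the liver no gene of the lists passed after adjustment with limma, and 1, the type I activin receptor gene ACVR1B, met the study's thresholds, against 3.56% of all probes, at 0.63 ± 0.19 (SE, limma adjusted p = 0.499).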

How the data were processed

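Total RNA was labelled with Cy3. According to the file headers, the authors deposited the intensity of each spot as written by Agilent Feature Extraction 10.7, background-subtracted and detrended but not normalized between arrays, with other columns of deposited 0 or 1 marks for outliers, saturation and signal well above background. The authors also deposited log2 values, quantile normalized in GeneSpring, used as an alternative. Here control spots were dropped, outlier spots set to missing, log2 intensities quantile normalized and spots of a probe averaged. Liver diets and tissues were fitted with limma 3.58.1 in R 4.3.3, with Benjamini-Hochberg adjustment over all 43603 probes. The scripts were tested on simulated data and figures drawn with matplotlib. No genome build is given in the sources used here, so no coordinates are printed. A symbol was found for 13542 probes. All member probes are named, and of other genes those with the widest differences per role. The members and lists were chosen with earlier results of these data known. Some items are not reported here.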

Additional observations from a re-analysis of the deposited data

Results flagged for a closer look

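Of 68 sets of 4 arrays, formed by the 17 probes and the 4 groups, 4 held an array whose gap to the nearest other array exceeded Dixon's critical value of 0.829 as a share of the range. Chance gives about 1 in 20. INHBB was highest in colonic CS replicate 3, at 3.74, and in liver RPS replicate 2, at 5.55, where it was the only liver array above background. Without the latter, no liver array was above background for INHBB, as against 4 of 8 colonic arrays, so the call for a higher colonic signal that it then gained (limma adjusted p = 0.00608) has no measured level on the liver side. AMH base 1763 was highest in liver CS replicate 1, at 8.12 against 7.91 to 7.94. SMAD7 base 856 was lowest in liver CS replicate 4, at 3.52 against 4.27 to 4.39.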

How the results depend on the processing

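With normexp background correction and its offset of 50, 0 member probes met both limits in the colon in place of 2. TGFB3 base 2045 then differed by -0.40, FST base 737 by -0.39 and AMH base 249 by 0.35. The offset is similar in size to the median signals of the arrays. Its part in the smaller normexp values was not separated from that of the background method. Leaving out 1 array at a time gave 2 to 4 such probes, the 4 without RPS replicate 2, and leaving out colonic CS replicate 3 and RPS replicate 2 together, chosen after seeing the data, gave 5, among them INHBA base 979, mostly at background. In the liver the study's thresholds were met by 0 to 1 member probes when 1 array was left out, with 1 without CS replicate 2 (INHBA base 979 at -0.99) or without RPS replicate 4 (TGFB3 base 2508 at -0.71). For colon against liver, leaving out 1 array gave 5 to 6 probes higher and 6 to 7 lower in colon, and among RPS pigs alone 3 were higher. Over all probes 23084 were called, 22003 to 22810 with 1 array left out and 16391 among RPS pigs alone. TGFB1 base 1571 lost its call without colonic CS replicate 3, liver CS replicate 2 or liver RPS replicate 2 (limma adjusted p of 0.0624 to 0.0671). TGFB2 base 696 gained one with 75th percentile scaling, at 0.92 (limma adjusted p = 0.0407), with no measured level on the liver side, where it was above background on 0 of 8 arrays. Over all probes the colonic count of 718 became 1476 with that scaling, which moved the share higher with RPS from 61.6% to 82.4%. The colonic count was 95 with normexp, 380 after dim probes were dropped, 931 to 2599 with 1 array left out and 2784 with both named arrays left out. With the replicate block it was 1647, by another limit. There all 4 same-numbered RPS minus CS differences had to share a sign, in place of groups that do not overlap. The liver count of 1554 became 220 with normexp and 525 with a fold limit of 2. FST base 229 and base 737, TGFB3 base 2508, both INHBA probes and both SMAD7 probes kept direction and call between tissues under all alternatives run, but not their size. With normexp colon minus liver became -1.53 for FST base 737, -1.07 for FST base 229, 0.43 for SMAD7 base 856, -0.56 for TGFB3 base 2045, -0.27 for AMH base 249, 0.35 for TGFBR1 and 0.61 for TGFB1 base 1571, all still called.

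Colonic and liver arrays of 1 number may come from 1 pig, which the labels do not state, and the tissue fit takes them as independent. The correlation of their deviations was 0.16 to 0.33 in CS and -0.08 to 0.07 in RPS pigs. Same-numbered CS and RPS arrays, which come from different pigs, gave -0.51 to 0.55 in colon and -0.16 to 0.11 in liver. The numbers may pair the CS arrays, which these values cannot settle, and the main fit did not pair them. With the replicate number as a block, 5 probes were higher and 6 lower in colon and 0 met the liver thresholds. In the colon 2 had a fold above 1.5 and the same sign in all same-numbered RPS minus CS differences. TGFB1 base 1571 (limma adjusted p = 0.0648) and TGFB3 base 901 (limma adjusted p = 0.0543) lost their call.

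Reversals concerned differences that were not called or, in the colon, not tested. With normexp the liver diet difference became 0.0037 for AMH base 1549 and -0.0118 for TGFB1 base 1571, and colon minus liver became -0.0309 for INHBB. AMH base 1763 turned to 0.12 among RPS pigs and AMH base 1549 to -0.14 among CS pigs, and to -0.12 without colonic CS replicate 3 and RPS replicate 2 together. With single arrays left out, liver diet differences ranged from -0.38 to 0.61 for FST base 737, -0.034 to 0.63 for FST base 229, -0.90 to 0.62 for INHBB, -0.049 to 0.18 for INHBA base 3499, -0.21 to 0.23 for TGFB1 base 1571, -0.12 to 0.59 for TGFB2, -0.24 to 0.082 for TGFB3 base 901, -0.23 to 0.11 for SMAD7 base 856, -0.28 to 0.084 for AMH base 1549 and -0.052 to 0.076 for AMH base 1763. Tissue differences so ranged from -0.037 to 0.20 for AMH base 1549 and from -0.080 to 0.014 for AMH base 1763. Colonic diet differences so ranged from -0.70 to 0.11 for TGFB1 base 2948, -0.07 to 0.21 for SMAD7 base 2687 and -0.18 to 0.11 for FST base 229. The causes were not tested. Dim probes limit what can be read: INHBB, TGFB2 and TGFB3 base 901 are near background.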
